A study of Mus musculus with 6 samples.

Results

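Oxtr, Lipf, Tfr2, Ncan, Scn8a, Kcnj14 and Atp1a4 are 7 of the 54532 genes in a count table of mouse inguinal white adipose tissue, which lies under the skin. They were picked because all 3 Cdo1AKO libraries lay above all 3 control libraries with large changes, so the difference between the groups is described here and not tested. The controls were mice with a floxed Cdo1 gene (Cdo1flox/flox, genotype label WT), and the Cdo1AKO mice are labelled as a deletion of Cdo1 in adipose tissue. Both groups were 8 weeks old when a high-fat diet began and ate it for 15 weeks, and each group has 3 samples. The Cre line, the sex of the mice and whether a sample is a single animal are not given in the sources used here. The p-values below therefore cover sample-to-sample spread alone, and that spread may be technical.

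The chosen genes have different jobs. Oxtr encodes the receptor of the peptide hormone oxytocin, which signals mainly through Gq proteins and intracellular calcium and has been studied in fat for its effects on lipolysis. Lipf encodes gastric lipase, an acid-stable triglyceride lipase of digestion. Tfr2 encodes transferrin receptor 2, an iron sensor of hepatocytes and erythroid precursors. Ncan encodes neurocan, a chondroitin sulfate proteoglycan of brain matrix. The other members carry ions: Scn8a encodes the neuronal sodium channel Nav1.6, Kcnj14 an inward rectifier potassium channel, and Atp1a4 the sodium pump alpha subunit best known from sperm.

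The members lie on 7 different chromosomes, 3 on the plus and 4 on the minus strand, and all are protein coding. In mm10 coordinates of the table, Oxtr (ENSMUSG00000049112) spans chromosome 6, 112473683 to 112489943, and Lipf (ENSMUSG00000024768) chromosome 19, 33961187 to 33976810. Tfr2 (ENSMUSG00000029716) spans chromosome 5, 137569840 to 137587481, and Ncan (ENSMUSG00000002341) chromosome 8, 70093085 to 70120873. Scn8a (ENSMUSG00000023033) spans chromosome 15, 100869858 to 101045938, and Kcnj14 (ENSMUSG00000058743) chromosome 7, 45816460 to 45824782. Atp1a4 (ENSMUSG00000007107) spans chromosome 1, 172223513 to 172258414. In the GENCODE annotation of the same build all 7 spans were identical to those of the table, and 0 exon bases of any member were shared with another gene. The microRNA gene Mir7066 inside Ncan and the antisense gene Gm37950 across Atp1a4 had 0 counts in every library.

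Promoter sequences are shown for 4 members with different roles, to show where the searched motifs lie. RefSeq sequences of build GRCm38.p6, the assembly named mm10, cover 250 bases before to 50 bases after a start site. They were found for 6 of 7 members, with more than 1 start for Tfr2 and Scn8a. Kcnj14 is not among them. Capitals mark matches, on either strand, to 7 motifs. These were the E-box CACGTG, the GC box GGGCGG, the start-site element TATAAA, the box called CCAAT, the nuclear receptor core element AGGTCA, the core TGACGT of the cAMP response element and the motif of AP-1 factors, TGACTCA.
Oxtr, chr6:112489776-112490075 (-): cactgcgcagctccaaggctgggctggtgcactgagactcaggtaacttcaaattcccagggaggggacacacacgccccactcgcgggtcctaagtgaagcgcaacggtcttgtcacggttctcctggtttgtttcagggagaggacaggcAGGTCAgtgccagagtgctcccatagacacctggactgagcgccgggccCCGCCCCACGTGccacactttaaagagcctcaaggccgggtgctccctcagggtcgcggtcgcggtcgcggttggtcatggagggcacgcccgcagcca
Lipf, chr19:33960998-33961297 (+): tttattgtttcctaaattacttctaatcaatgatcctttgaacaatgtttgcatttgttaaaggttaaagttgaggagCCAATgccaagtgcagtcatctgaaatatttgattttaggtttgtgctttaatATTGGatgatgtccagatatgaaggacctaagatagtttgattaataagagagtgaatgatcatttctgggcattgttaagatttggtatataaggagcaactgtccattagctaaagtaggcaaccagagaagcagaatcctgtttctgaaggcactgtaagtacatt
Tfr2, chr5:137569590-137569889 (+): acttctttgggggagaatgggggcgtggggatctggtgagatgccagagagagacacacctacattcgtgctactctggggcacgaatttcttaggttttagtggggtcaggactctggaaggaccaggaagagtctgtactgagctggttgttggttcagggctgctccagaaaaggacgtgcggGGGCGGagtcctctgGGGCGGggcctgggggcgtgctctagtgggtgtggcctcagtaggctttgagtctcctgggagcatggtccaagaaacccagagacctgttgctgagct
Atp1a4, chr1:172258375-172258674 (-): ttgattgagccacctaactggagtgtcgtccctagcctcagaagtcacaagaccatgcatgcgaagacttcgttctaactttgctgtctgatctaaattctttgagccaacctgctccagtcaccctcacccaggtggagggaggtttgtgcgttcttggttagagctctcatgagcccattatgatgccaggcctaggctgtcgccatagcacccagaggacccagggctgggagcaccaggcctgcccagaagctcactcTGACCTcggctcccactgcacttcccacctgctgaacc
The Oxtr promoter had 63.7% G and C, that of Lipf 34.3%, the first one of Tfr2 58.0% and that of Atp1a4 55.7%, against a median of 52.7% over 32851 promoters. In Oxtr a GC box, in reverse orientation from position -49 (the first base), ran straight into an E-box from -43, and AGGTCA stood at -98. Lipf held CCAAT at -172 and, reversed, at -119, and the first Tfr2 promoter held GC boxes at -64 and -49. Atp1a4 held AGGTCA, reversed, at 13 bases after the start. No motif was in all 6 members. GC boxes were in 3 members (Ncan, Oxtr and Tfr2), or 3 of the 9 member promoters, and in 35.7% of all promoters. AGGTCA was in 3 (Atp1a4, Oxtr and Scn8a), again 3 of the 9 member promoters, and in 16.3% of all promoters. CCAAT was in 2 of the 9 member promoters (37.4% of all), from 2 members, the E-box in 1 (7.15%) and TATAAA in 1 (13.6%). TGACGT and TGACTCA were in 0 of the 9 member promoters and in 7.51% and 5.20% of all promoters. No hit overlapped another, and a match is a description of letters only.

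Cdo1, the targeted gene, stood at 887, 432 and 631 CPM in controls 1 to 3, against 123, 391.6 and 134 CPM in Cdo1AKO 1 to 3, a log2 fold change of -1.59 ± 0.53 (SE; adjusted p = 0.416 by edgeR). CPM are counts scaled to library totals, with TMM factors. Cdo1AKO 2 thus kept most Cdo1 of its group and lay near control 2. Total counts per library ran from 16275184 to 19205804. Libraries also differed in lymph node transcripts: the median of B cell and lymph node stroma markers was near 0 in control 1 (0.0614 CPM) and Cdo1AKO 2 (0.354 CPM), while the other 4 stood at 47.6 to 92.0 CPM. The mean chi-square per gene between Cdo1AKO 1 and 3 was 5.64, where sampling noise alone gives about 1. It was 195 and 204 for Cdo1AKO 2 with each of them and 23.0 to 80.4 between controls. Adipocyte markers were high in every library, with Adipoq at 1492 CPM or more. In such bulk samples fewer cells of a type and less RNA per cell cannot be told apart.

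Oxtr, per length the most abundant member in Cdo1AKO, had 74, 211 and 209 counts in controls 1 to 3, against 977, 4446 and 861 counts in Cdo1AKO 1 to 3. In CPM these were 4.54, 11.3 and 11.2 in controls and 48.8, 286 and 47.3 in Cdo1AKO. Control 1 was the lowest library and Cdo1AKO 2 by far the highest, and the groups did not overlap: the lowest Cdo1AKO library stood 4.19-fold above the highest control. The group means were 9.01 ± 3.87 CPM in controls and 127 ± 137 CPM in Cdo1AKO (SD, n = 3), so that in Cdo1AKO the spread was as wide as the mean. The log2 fold change was 3.82 ± 0.88 (edgeR SE, 3 libraries per group). Without Cdo1AKO 2 it was 2.41 ± 0.40, and Cdo1AKO 1 and 3 alone stood on average 5.33-fold above the control mean. Cdo1AKO 2 held 74.8% of the Oxtr signal summed over the 3 Cdo1AKO libraries. Oxtr therefore kept the highest value of the 7 members with this library and without it.

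Lipf had 0.920, 2.51 and 1.82 CPM in controls 1 to 3, against 6.50, 32.4 and 6.53 CPM in Cdo1AKO 1 to 3. Cdo1AKO 1 and 3 were nearly equal, and both were 2.58-fold or more above every control. The control 1 value rests on 15 counts, for which an exact Poisson 95% interval runs from 8.40 to 24.7 counts and covers counting error only. The log2 fold change of 3.10 ± 0.80 became 1.88 ± 0.42 without Cdo1AKO 2. Per kilobase of gene length Lipf stood at 1.24 CPM per kb in controls and 10.7 in Cdo1AKO. Lipa, the lysosomal acid lipase of the same family, stood at 23.0 and 29.4 CPM per kb, so Lipf remained the lower of this pair in both groups.

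Tfr2 had 2.88, 7.06 and 4.13 CPM in controls 1 to 3, against 18.5, 74.2 and 18.8 CPM in Cdo1AKO 1 to 3. The lowest Cdo1AKO library was 2.62-fold above the highest control. Its log2 fold change was 2.98 ± 0.69 with all libraries and 1.99 ± 0.37 without Cdo1AKO 2, the largest share kept by any member (66.6%). Tfrc, the classical transferrin receptor that takes up iron, stood at 26.4 ± 0.723 CPM in controls and 36.1 ± 9.18 CPM in Cdo1AKO (SD, n = 3). Per kilobase, Tfr2 was at 1.08 against 4.28 for Tfrc in controls and at 8.58 against 5.84 in Cdo1AKO. The second value of Tfr2 averages 17.1 CPM per kb in Cdo1AKO 2 with 4.27 and 4.34 in Cdo1AKO 1 and 3.

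Ncan depended most on Cdo1AKO 2. It had 1.53, 3.90 and 3.43 CPM in controls 1 to 3, against 7.50, 56.2 and 6.26 CPM in Cdo1AKO 1 to 3. The groups were separated by only 1.60-fold, from 3.90 CPM in control 2 to 6.26 CPM in Cdo1AKO 3. Cdo1AKO 2 was 8.17-fold above the mean of Cdo1AKO 1 and 3 and held 80.3% of the Cdo1AKO signal. The log2 fold change was 2.97 ± 0.97 with this library and 1.21 ± 0.42 without it, which is 40.8% of the first value. On the CPM scale, 19.3% of the difference between the group means was left.

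Scn8a, a long gene listed at a length of 15766 bases, was the least abundant member per length. It had 0.920, 1.60 and 2.04 CPM in controls 1 to 3, against 4.6, 23.8 and 5.43 CPM in Cdo1AKO 1 to 3. Control 1 had 15 counts, and the lowest Cdo1AKO library, with 92 counts, was 2.26-fold above the highest control in CPM. The log2 fold change of 2.88 ± 0.75 was 1.71 ± 0.38 without Cdo1AKO 2. In controls only 1.14% of the tested genes were lower per kilobase, and in Cdo1AKO 15.0% were.

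Kcnj14 had 2.64, 7.97 and 5.36 CPM in controls 1 to 3, against 13.9, 82.7 and 13.7 CPM in Cdo1AKO 1 to 3. Its controls spread most of all members, 3.02-fold from lowest to highest, and the groups were separated by 1.72-fold. The log2 fold change was 2.78 ± 0.86 and 1.37 ± 0.44 without Cdo1AKO 2, so that 49.1% was left. Cdo1AKO 2 was 6.0-fold above the mean of the other two Cdo1AKO libraries, next to Ncan among the members.

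Atp1a4 had 1.04, 2.09 and 2.09 CPM in controls 1 to 3, against 5.50, 18.7 and 4.72 CPM in Cdo1AKO 1 to 3. Its libraries were the most even of the members: Cdo1AKO 2 was 3.65-fold above the mean of Cdo1AKO 1 and 3, and controls spread 2.0-fold. The log2 fold change was 2.46 ± 0.64 and 1.54 ± 0.37 without Cdo1AKO 2. Per kilobase of gene length Atp1a4 stood at 0.475 CPM in controls and 2.63 in Cdo1AKO, and 12% and 36.4% of the tested genes were lower.

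**Figure D1:**
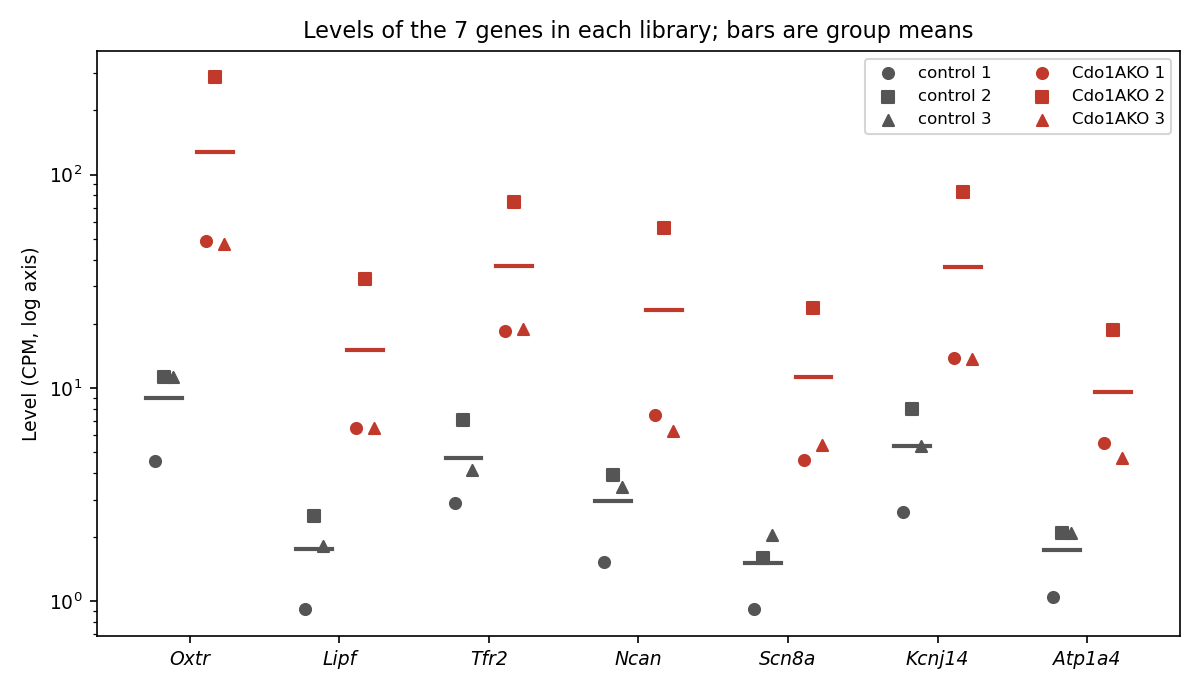
CPM of each of the 7 genes (log axis) in the 6 libraries, with symbols for replicate numbers, colours for groups and bars for group means. In every gene control 1 is the lowest point and Cdo1AKO 2 the highest, from 18.7 CPM for Atp1a4 to 286 CPM for Oxtr, and Cdo1AKO 1 and 3 lie close together above all controls.

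How far Cdo1AKO 2 carried the changes can be read in 3 ways. As a share of summed CPM in the Cdo1AKO group, this library held 64.6% (Atp1a4) to 80.3% (Ncan), with a median of 71.3% over the members. As a share of the difference between group means in CPM, 19.3% (Ncan) to 43.0% (Tfr2) was left without it. On the log2 scale, 40.8% to 66.6% was left. As the rule requires, every member was above every control in Cdo1AKO 1 and 3, by 1.60-fold (Ncan) to 4.19-fold (Oxtr) at the closest points. Over all 16623 tested genes, 8.87% had every Cdo1AKO library above every control; the members were chosen by this criterion, so nothing is read from their 7 of 7.

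Leaving out any other library moved the log2 fold changes less. Their range over the members was 2.46 to 3.82 with all libraries, 1.21 to 2.41 without Cdo1AKO 2, 2.74 to 4.21 without Cdo1AKO 1 and 2.79 to 4.21 without Cdo1AKO 3. Without control 1, the lowest control in all 7 genes, it was 2.19 to 3.49. The order of the members also shifted: without Cdo1AKO 2 Oxtr stayed first, Tfr2 came next, and Ncan came last, though it had ranked above Scn8a, Kcnj14 and Atp1a4 with all libraries.

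**Figure D2:**
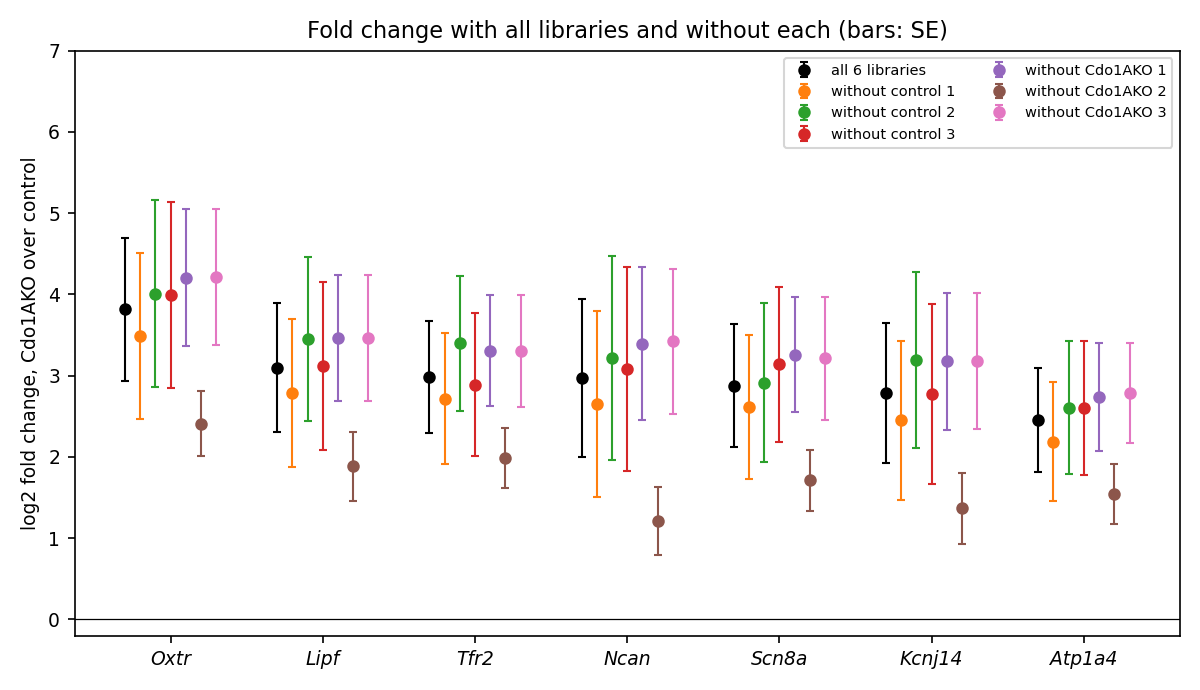
log2 fold change of Cdo1AKO over control for each gene, with all 6 libraries and without each one in turn (points; bars are SE from edgeR). The values without Cdo1AKO 2 are the lowest of each gene, from 1.21 for Ncan to 2.41 for Oxtr.

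The pair of libraries with few lymph node transcripts, control 1 and Cdo1AKO 2, lay at opposite ends of every member. Between these libraries the members differed by 17.9-fold (Atp1a4) to 63.0-fold (Oxtr), with 1 sample per group and no test. Among the 4 libraries with lymph node transcripts, Cdo1AKO 1 and 3 stood on average above control 2 and 3 by 1.88-fold (Ncan), 2.07-fold (Kcnj14), 2.45-fold (Atp1a4), 2.75-fold (Scn8a), 3.0-fold (Lipf), 3.33-fold (Tfr2) and 4.27-fold (Oxtr). The rule fixes that the members are higher within both kinds of library, so only the sizes are described.

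The members also varied together within the groups. Over the 21 pairs of members, Pearson's r of log2 CPM across the 6 libraries ran from 0.956 (Tfr2 and Ncan) to 0.997 (Oxtr and Atp1a4). With group means removed, r was 0.922 to 0.998, with a median of 0.986. All these coefficients share the same 6 libraries and are given without a p. The members were chosen for large changes, to which Cdo1AKO 2 added most, so high r values follow in part from the choice. No r of other gene pairs was taken as background. Control 1 was the lowest and Cdo1AKO 2 the highest library in 7 of 7 members, against 6.61% of all tested genes and 34.1% of the 1475 genes with every Cdo1AKO library above every control. Cdo1AKO 2 was at least 3-fold above the mean of Cdo1AKO 1 and 3 in 7 of 7 members and in 3.41% of all tested genes. Cdo1AKO 2 alone was highest in 31.7% of tested genes (59.3% of those without overlap), and control 1 lowest in 25.3%. That library also entered the change on which the members were chosen, so these shares are given as a description. Control 2 was the highest control in 5 members, and control 3 in Scn8a and Atp1a4.

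Genes with the most similar pattern were named by Pearson's r of log2 CPM over the 6 libraries among 13227 other protein-coding genes with mean CPM of at least 1. To the mean pattern of the 7 members the closest were Tuba1c (r = 0.999), an alpha tubulin, Crtac1 (0.998), Fgf1 (0.997), Gypc (0.997) and C1qtnf6 (0.996). Fgf1, a fibroblast growth factor that fat makes on a high-fat diet, had 11.2, 18.4 and 15.8 CPM in controls 1 to 3, against 30.5, 109 and 30.1 CPM in Cdo1AKO 1 to 3, close in shape to the members. Tuba1c had 20.7, 27.6 and 26.4 CPM against 36.3, 60.9 and 35.7 CPM, the same order with a smaller range. For single members the closest gene was Ptprf for Oxtr (0.998), Tuba1c for Lipf (0.998) and for Atp1a4 (0.997), Plekhh2 for Tfr2 (0.998), Lctl for Ncan (0.998), Eipr1 for Scn8a (0.998) and Adamts14 for Kcnj14 (0.998). The next were Heatr5a and Bloc1s3 for Oxtr, Crtac1 and Mfsd7a for Lipf, Gnb4 and Unc119 for Tfr2, and Sec23b and Mogat2 for Ncan. For Scn8a they were Crtac1 and Erich1, for Kcnj14 Mfsd7a and Pkia, and for Atp1a4 Ppib and Dtx4. A high r says nothing of size: Sec23b had a log2 fold change of 0.29 and Mogat2, which makes diacylglycerol from monoacylglycerol, 2.98. Between 15 and 39 genes reached r of 0.99 with each member.

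Ranked by log2 fold change among protein-coding genes with mean CPM of at least 5 and every Cdo1AKO library above every control, the members took ranks 3 (Oxtr), 4 (Lipf), 7 (Tfr2), 8 (Ncan), 9 (Scn8a), 10 (Kcnj14) and 14 (Atp1a4). The last member, Atp1a4, stood at 2.46, beside the matrix gene Pcolce2 at 2.46 and Cdkl4 at 2.42, which were not chosen. Tph2, a tryptophan hydroxylase of serotonin synthesis, ranked first at 5.20 and was not chosen either, at 0.491 to 1.82 CPM in controls, 110.5 CPM in Cdo1AKO 2 and only 7.40 and 8.29 CPM in the other two Cdo1AKO libraries.

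The relatives and partners of the members, 163 genes in 8 lists, are the next comparison. By edgeR's quasi-likelihood test 0 of 114 tested list genes passed at adjusted p under 0.05, as did 0 of all genes (0%). At an unadjusted p under 0.05 there were 7 higher and 11 lower list genes (6.14% and 9.65%, against 4.66% and 5.71% of all genes). DESeq2 called 3 of the list genes (1.55% of all genes), and limma-voom 0. The highest log2 fold change in the lists was 1.68 (Fgf13), below every member. The members were chosen for large changes and are not in the lists, so nothing is read from that order. Every Cdo1AKO library was above every control in 14 of 114 list genes (12.3%, against 8.87% of all), and below in 10 (8.77%, against 9.73%). The lists' median log2 fold change was 0.16, against 0.06 over all genes. Positive values made up 61.4% of the tested list genes and 56.0% of all tested genes. In the next paragraphs a value before ± and an SE is the log2 fold change, Cdo1AKO over control (3 libraries each), unless CPM is named, and none passed edgeR's test.

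Around Oxtr, the hormone genes Oxt and Avp had 0 counts in all libraries, where 3 counts, or 0.150 to 0.193 CPM, would have been the limit of detection. Of the vasopressin receptors of the same family, Avpr1a stood at 1.23 ± 0.370 CPM in controls and 1.64 ± 1.04 CPM in Cdo1AKO (SD, n = 3), and Avpr1b had 0 counts. Avpr2 had 0.184, 2.57 and 1.82 CPM in controls 1 to 3, against 2.65, 0.257 and 3.57 CPM in Cdo1AKO 1 to 3, lowest in the libraries with few lymph node transcripts, a different pattern from Oxtr. Lnpep, the aminopeptidase that degrades oxytocin, had -0.18 ± 0.15. Of 23 tested genes of oxytocin signalling 13 were positive, with a median of 0.17. The smallest p belonged to Rgs2, a brake on Gq signalling, with -1.46 ± 0.53, Gnai2, an inhibitory G protein subunit, with 0.47 ± 0.17, and the arrestin Arrb2 with 1.09 ± 0.46. Rgs2 was highest in control 1 (93.4 CPM) and lowest in Cdo1AKO 2 (17 CPM), but with 19.7 CPM in control 2 its groups overlapped.

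Around Lipf, only 4 of 18 lipase genes passed the filter on low counts. Lipo3, the nearest tested gene to Lipf, stood at 10.9 to 18.2 CPM, above Lipf in every library except Cdo1AKO 2. Lipk had 0 counts and Lipn 1 count in all. Lipa had 0.35 ± 0.18, Lipo3 0.27 ± 0.23 and Lpl, the lipoprotein lipase, 0.11 ± 0.60. Endothelial lipase Lipg had -1.19 ± 0.38, and every Cdo1AKO library was below every control.

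Around Tfr2, 28 iron genes were tested, 14 positive and 14 negative, with a median of 0.01. Hamp, the hormone hepcidin that hepatic Tfr2 helps to control, had 0, 8 and 18 counts in controls 1 to 3, against 9, 0 and 7 in Cdo1AKO 1 to 3. Hfe, which acts with Tfr2 in iron sensing and is named here after its values were seen, read 52.7, 49.6 and 52.6 CPM in controls 1 to 3, against 61.5, 319 and 66.9 CPM in Cdo1AKO 1 to 3 (1.53 ± 0.66). Its Cdo1AKO 2 value stood out as that of Tfr2 did, but Cdo1AKO 1 and 3 were closer to controls. The iron exporter Slc40a1 had 0.74 ± 0.40, Tfrc 0.45 ± 0.20 and the ferritin heavy chain Fth1 -0.19 ± 0.27. The smallest p belonged to lower genes: the ferroxidase ceruloplasmin, Cp, with -1.14 ± 0.17, the ferritin autophagy receptor Ncoa4 with -0.76 ± 0.20, and the metalloreductase Steap4 with -0.86 ± 0.22. Cp had 205, 152 and 174 CPM in controls 1 to 3, against 84.7, 71.9 and 84.6 CPM in Cdo1AKO 1 to 3, without overlap and with Cdo1AKO 2 like the others of its group. DESeq2 called it (adjusted p = 0.000188 by DESeq2, 0.230 by edgeR).

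Around Ncan, the lectican Vcan had -0.25 ± 0.87. It stood at 12.1, 5.08 and 11.6 CPM in controls 1 to 3. In Cdo1AKO 1 to 3 it had 2.10, 19.1 and 3.07 CPM. Vcan was thus highest in Cdo1AKO 2, as Ncan was, but in Cdo1AKO 1 and 3 it was below every control. Bcan, another lectican, had 2 to 10 counts per library, too few for edgeR's test. Hapln4, a link protein that joins lecticans to hyaluronan, was too low to be tested, with 0, 4 and 4 counts in controls 1 to 3, against 18, 42 and 6 in Cdo1AKO 1 to 3. The smallest p among 16 tested genes belonged to Ncam1, a cell adhesion partner of neurocan, with -1.73 ± 0.61. Its value rests on low counts, 31, 16 and 35 in controls 1 to 3 and 14, 8 and 3 in Cdo1AKO 1 to 3. Next came the link protein Hapln3 with 0.68 ± 0.47 and the chondroitin polymerising factor Chpf with 0.59 ± 0.42. Hapln3 and Chpf were highest in Cdo1AKO 2, at 12.9 and 103 CPM, while Cdo1AKO 1 and 3 stood at 5.0 and 3.95 CPM for Hapln3 and 41.5 and 35 CPM for Chpf, close to controls.

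Around Scn8a, the sodium channel alpha gene with the most reads per length was Scn7a, a sodium sensor, at 26.2 CPM per kb in controls and 17.1 in Cdo1AKO (-0.61 ± 0.19), against 0.0965 and 0.715 for Scn8a. Every Cdo1AKO library of Scn7a was below every control. The ankyrin Ank3, which anchors sodium channels, had -1.26 ± 0.39. Fgf13, an intracellular regulator of sodium channels, had 11.9, 23.6 and 22.2 CPM in controls 1 to 3, against 28.5, 129.7 and 26.5 CPM in Cdo1AKO 1 to 3 (1.68 ± 0.69). Its order of libraries was that of the members, with control 1 lowest and Cdo1AKO 2 highest.

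Around Kcnj14, 6 of 16 inward rectifier genes were tested, and 5 were positive (83.3%, against 56.0% of all tested genes). Per kilobase the vascular channel Kcnj8 stood at 7.69 CPM in controls and 8.36 in Cdo1AKO, against 1.96 and 13.5 for Kcnj14. The second value of Kcnj14 averages 30.4 in Cdo1AKO 2 with 5.11 and 5.03 in Cdo1AKO 1 and 3. The smallest p belonged to Kcnj16 with 1.40 ± 0.89, Kcnj2 with 1.05 ± 0.79 and Kcnj10 with 1.62 ± 1.32. Kcnj16 had 1 to 43 counts per library, and its groups overlapped. Kcnj10 had 0, 18 and 8 counts in controls 1 to 3, and 43, 1 and 39 in Cdo1AKO 1 to 3. It was lowest in the libraries with few lymph node transcripts, a different pattern from Kcnj14. Kcnj2 was at 9.13 CPM in Cdo1AKO 2 and no higher than 2.51 CPM elsewhere. Kcnj8 had 0.12 ± 0.25.

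Around Atp1a4, the other pump subunits spread in both directions, 7 of 11 tested genes positive and 4 negative. The beta subunits Atp1b3 and Atp1b1 had 0.51 ± 0.14 and 1.2 ± 0.73, and the regulator Fxyd2 1.02 ± 0.26. Every Cdo1AKO library was above every control in 3 of 11 tested genes (27.3%, against 8.87% of all), Atp1b3 and Fxyd2 among them. Atp1b3 was highest in Cdo1AKO 1 and Fxyd2 in Cdo1AKO 3, neither in Cdo1AKO 2.

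Genes known to vary with the expansion of fat were read beside the members. Of 11 tested, 9 were positive (81.8%, against 56.0% of all tested genes), with a median log2 fold change of 0.46. Every Cdo1AKO library was above every control in 4 of them (36.4%, against 8.87% of all). Mest had 88.7, 261 and 194 CPM in controls 1 to 3, against 415, 852 and 372 CPM in Cdo1AKO 1 to 3 (1.59 ± 0.50), and again control 1 was lowest and Cdo1AKO 2 highest. Sfrp5, an inhibitor of Wnt ligands, had 1.05 ± 0.22 and was highest in Cdo1AKO 1, and Nnat had -1.0 ± 0.28. DESeq2 called Sfrp5 (adjusted p = 0.00612 by DESeq2, 0.309 by edgeR) and Nnat (0.0115 by DESeq2, 0.362 by edgeR). Lep, the leptin gene, stood at 8301 CPM in Cdo1AKO 2 and between 1483 and 1655 CPM elsewhere. Unlike the members, it was not higher in Cdo1AKO 1 and 3 than in controls. Cav1, Sncg and Npr3, positive as well, were also highest in Cdo1AKO 2. In Cdo1AKO 1 and 3, Cav1 and Sncg were below every control, and Npr3 was within the control range.

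**Figure D3:**
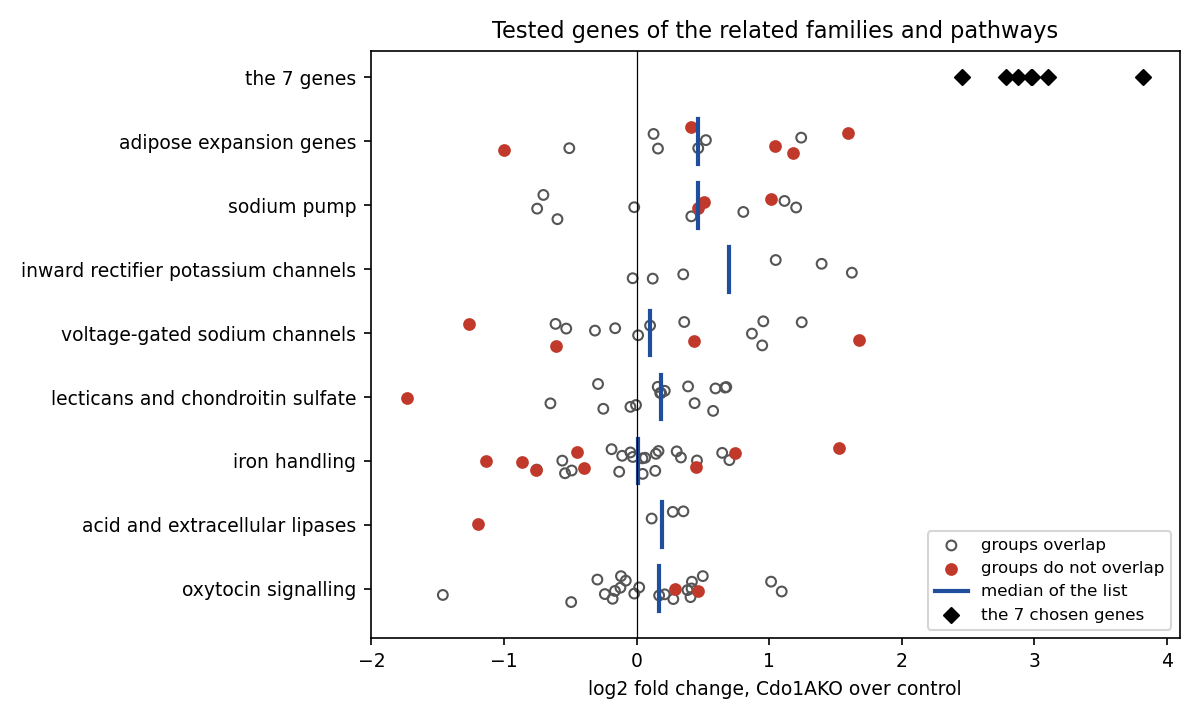
log2 fold change of Cdo1AKO over control for the tested genes of 8 lists of relatives and partners (circles, filled red where the groups do not overlap; blue lines are medians) and for the 7 chosen genes (diamonds). The chosen genes, picked for large changes, start at 2.46, and the highest list gene, Fgf13, stands at 1.68.

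The nearest tested genes on the chromosome had smaller differences than the members, which were chosen for large ones, so nothing is read from that order. Of the 14 flanking genes, none had a log2 fold change above 2.05. That value, 2.05 ± 0.46, was that of Casq1, a calcium store protein of muscle next to Atp1a4, with 1.17, 0.909 and 2.63 CPM in controls 1 to 3, against 5.25, 8.11 and 6.26 CPM in Cdo1AKO 1 to 3. Igsf8, on the other side of Atp1a4, had 0.60 ± 0.17, and for both genes every Cdo1AKO library was above every control. This held for 6 of the 14 flanking genes (42.9%, against 8.87% of all tested genes): Casq1, Igsf8, Stambpl1, Ssu2, Mospd3 and Cyth2. Stambpl1, beyond Lipf, had 1.47 ± 0.48 between 6.75 CPM (control 1) and 63.0 CPM (Cdo1AKO 2) as its extremes, and Lipo3, on the other side, 0.27 ± 0.23. Around Oxtr the genes were Ssu2 with 1.36 ± 0.45, from 5 to 29 counts per library, and the pseudogene Gm15519 with 0.54 ± 0.43. Kcnj14 had Grwd1 (-0.14 ± 0.15) at 441 bases and Cyth2 (0.37 ± 0.15) at 1879 bases. Around Tfr2 were Gm17112 (0.46 ± 0.34) and Mospd3 (0.28 ± 0.16), around Ncan Tm6sf2 (-0.32 ± 0.65) and Rfxank (0.19 ± 0.21), and around Scn8a Slc4a8 (1.62 ± 0.79) and Fignl2 (-0.34 ± 0.17). Slc4a8 shared the direction of Scn8a and its lowest library, control 1 (7.06 CPM), but its highest values, 73.9 and 78.5 CPM, were in Cdo1AKO 1 and 3, with 11.6 CPM in Cdo1AKO 2. None of these genes passed edgeR's test.

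Markers of tissues in which the members are known were read in every library. Summed over 9 gastric epithelium markers, libraries had 0.123 to 0.215 CPM in controls and 0.193 to 0.400 CPM in Cdo1AKO, and Gkn1, Gkn2, Tff1 and Tff2 had 0 counts. The spermatid list of 7 genes summed to 0.0536 to 0.481 CPM and 0.129 to 0.600 CPM, with Akap4, Odf1 and Tnp1 at 0. The 8 hepatocyte markers summed to 28.1 to 50.3 CPM in controls and 15.6 to 20.5 CPM in Cdo1AKO, mostly from Alb, with Fgb at 0. Without Alb the sums overlapped, at 0.859 to 2.51 CPM and 1.54 to 5.47 CPM. Mammary epithelium markers, of interest because oxytocin acts on the mammary gland, summed to 4.97 to 9.45 CPM and 3.41 to 8.12 CPM over 14 genes, with Csn3 at 0, and were lowest in Cdo1AKO 2. Without Trp63, the most abundant, the sums were 2.89 to 3.97 CPM in controls and 4.95, 0.772 and 5.71 CPM in Cdo1AKO 1 to 3. The 10 neuron markers summed to 8.79 to 10.8 CPM and 14.0 to 20.7 CPM without overlap, led by Stmn2, Uchl1 and Tubb3. Stmn2 was lower in Cdo1AKO 2 (4.63 CPM) than in Cdo1AKO 1 and 3, while Uchl1 was highest there (6.95 CPM). Without Stmn2 the sums overlapped, at 4.24 to 5.19 CPM and 4.94 to 9.33 CPM, with Cdo1AKO 2 highest. Schwann cell markers summed to 136 to 167 CPM in controls and 67.9 to 109 CPM in Cdo1AKO over 8 genes, and without Mbp, the most abundant, to 55.0 to 95.2 CPM and 23.0 to 25.5 CPM.

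Of the other lists, those of smooth muscle, skeletal muscle and macrophages had higher sums in every Cdo1AKO library than in any control. Smooth muscle and pericyte markers (9 genes) summed to 599 to 769 CPM in controls and 935 to 1477 CPM in Cdo1AKO, and the leading genes were Acta2, Rgs5 and Cspg4. The separation rests on Acta2 (169 to 200.3 CPM in controls, 481 to 555 CPM in Cdo1AKO): without it the sums overlapped, at 398 to 601 CPM and 406 to 996 CPM, with Cdo1AKO 2 highest. Skeletal muscle markers (10 genes) summed to 60.9 to 127 CPM and 131 to 211 CPM, mostly from Acta1 (8.59 to 20.2 CPM and 21.7 to 30.1 CPM without it), with Myh4 at 0 in all libraries and Ckm at 0 in all but Cdo1AKO 2. Macrophage markers (8 genes) summed to 291 to 305 CPM and 358 to 688 CPM, highest in Cdo1AKO 2 and led by Lgals3, Csf1r and Cd163. Without Lgals3 they were 191 to 239.6 CPM and 263 to 364 CPM. Adipose progenitor markers (8 genes) summed to 1562 CPM in Cdo1AKO 2 alone, of which Col15a1 made up 1143 CPM, against 395 to 438 CPM elsewhere. Adipocyte markers (10 genes) summed to 38040 to 57412 CPM in controls. In Cdo1AKO 2 they were within that range, at 44554 CPM, and in Cdo1AKO 1 and 3 below it, at 22838 and 24414 CPM. Without Fabp4, the most abundant, they were 23421 to 37023 CPM in controls and 14357 to 22434 CPM in Cdo1AKO. Every Cdo1AKO library, Cdo1AKO 2 included, was then below every control. The largest part of these sums in controls was Cfd, at 6497 to 13942 CPM, against 1285 to 2665 CPM in Cdo1AKO. The other genes did not all share this order. In Cdo1AKO 2, Cidec and Retn were above every control, Pparg, Plin1, Adipoq and Lipe within the control range, and Plin4 and Acvr1c below it. Erythroid markers (8 genes) overlapped between the groups, at 339 to 980.1 CPM and 354 to 892 CPM. The part of these lists in the values of the members was not tested.

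**Figure D4:**
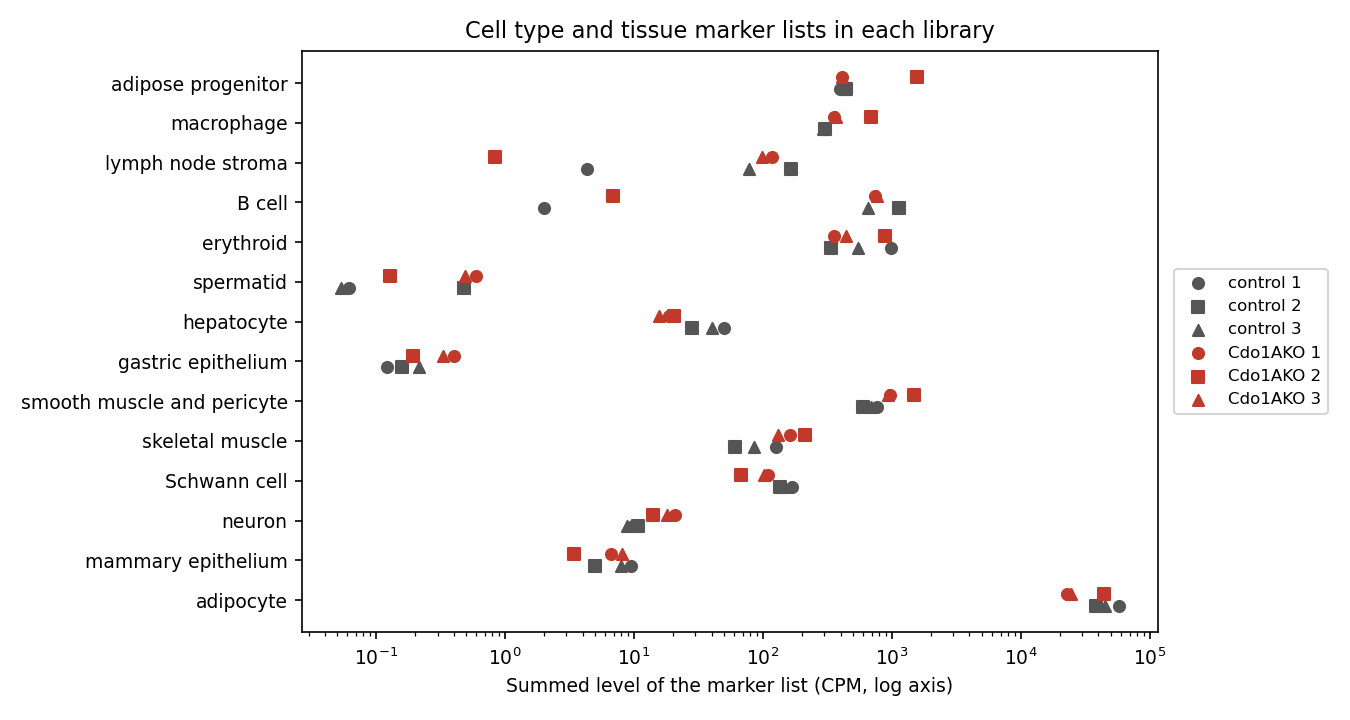
Summed CPM of 14 marker lists (log axis) in each library, grey for controls and red for Cdo1AKO, with symbols for replicate numbers. Gastric and spermatid markers stay under 1 CPM, lymph node stroma and B cell markers fall apart by library and not by group, and progenitor markers reach 1562 CPM in Cdo1AKO 2.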

How the data were processed

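Inguinal fat RNA from 3 control and 3 Cdo1AKO samples was isolated with TRIzol and sequenced from NEBNext Ultra libraries, per the labels' protocols. The authors deposited raw counts per gene and FPKM values in 1 table, per the file headers; FPKM was not used. The submitters' processing notes name mm10, featureCounts 1.5.0-p3, HISAT2 2.0.5 and DESeq2 1.20.0 but no roles. How strand was handled in counting is not stated there, so reads of overlapping antisense genes cannot be told apart. Columns named WT were matched to control titles by the genotype label and number. The members, lists and the rule for named genes were chosen with earlier results of these data known. The filterByExpr function of edgeR, given the groups, kept 16623 of 54532 genes and all 7 members. Counts were scaled with TMM and fitted with edgeR 4.0.16 (quasi-likelihood, group only) in R 4.3.3, adjusted by Benjamini-Hochberg over all tested genes at 0.05. The fit was tested on simulated counts. Named genes were the members, Cdo1, relatives listed by name, the 3 smallest p of each list, flanking genes and the genes of most similar pattern. Adipoq, Avp, Avpr1b, Avpr2, Lipk, Lipn, Hfe, and Tph2, Pcolce2 and Cdkl4 from the ranking, were named after their values were seen. Some genes that the rule names are not reported here. Likeness used log2(CPM + 0.5). Totals of 16275184 to 19205804 counts set the precision. Alternatives were other scalings and filters, DESeq2 1.42.0, limma-voom from limma 3.58.1, a replicate block, a lymph node term, the 4 libraries above 5 CPM of lymph node markers, and each library left out.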

Additional observations from a re-analysis of the deposited data

How the results depend on the processing

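The members' log2 fold changes were positive in all 15 alternatives, a sign that the choice of members fixes. In the 4 libraries with lymph node transcripts the values were 2.09 (Oxtr), 1.58 (Lipf), 1.73 (Tfr2), 0.90 (Ncan), 1.45 (Scn8a), 1.04 (Kcnj14) and 1.28 (Atp1a4), with fewer samples to estimate from. With each library left out in turn they were 2.41 to 4.21 for Oxtr, 1.88 to 3.46 for Lipf, 1.99 to 3.40 for Tfr2, 1.21 to 3.42 for Ncan, 1.71 to 3.26 for Scn8a, 1.37 to 3.19 for Kcnj14 and 1.54 to 2.79 for Atp1a4, the lowest each time without Cdo1AKO 2. Over all genes 0 passed edgeR's test (1724 at unadjusted p under 0.05), and 0 passed with each library left out. DESeq2 called 274, the lymph node term 686 and the 4 libraries with lymph node transcripts 2617; of the list genes these called 3, 8 and 31. Genes with every Cdo1AKO library above every control were 1475 and list genes 14; within those 4 libraries they were 5394 and 34, and with each library left out 1819 to 4881 and 16 to 33, the highest without Cdo1AKO 2 and, for all genes, 2511 without control 2. Fewer libraries have fewer values to keep apart; other causes were not tested. With the replicate block, 0 genes and 0 list genes were called (909 at unadjusted p under 0.05), and the members stood at 2.25 to 3.39. Deviations of same-numbered libraries correlated at -0.661, -0.668 and 0.449, and 0 of 6 libraries correlated best with their own number. Lymph node transcripts, low in control 1 and Cdo1AKO 2, enter these deviations, so the check cannot decide whether the numbers pair the samples. Counts as low as 15 limit the control values of Lipf and Scn8a.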
